A study of Homo sapiens with 4 samples.

Results

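The 57 genes described here serve the endoplasmic reticulum (ER): they sense misfolded protein there, carry the ATF4 branch of the stress response, bring proteins into the ER and fold them, or clear misfolded proteins by ER-associated degradation (ERAD). They were chosen by gene symbol and sorted by role into 8 sensors and transcription factors, 11 genes of the ATF4 branch, 22 genes of entry and folding, and 16 of ERAD. Of the 57, 56 had a probe that the platform annotation gives to that gene alone, and 54 reached the level at which genes were tested (a mean of 7.87 log2 over the 4 arrays), among 13752 tested genes in all. HSP90B1 is not analysed here, since its probe is shared with a pseudogene. CREB3L1 and DERL2 lay below the level limit and were not tested. CREB3L1, a membrane-bound transcription factor, read 205 and 133 on HMGA2-labelled arrays, against 118 and 189 on vector-labelled arrays. DERL2, a derlin of the ERAD channel, read 97 and 39 on HMGA2-labelled arrays, against 43 and 82 on vector-labelled arrays. In both of these the groups overlapped.

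The samples were DLD-1 cells, an established human colorectal adenocarcinoma line, on 4 single-colour arrays. The 2 arrays labelled HMGA2 (HMGA2-labelled arrays) come from stable cells transfected with pCMV6-HMGA2 tagged with tGFP, a green fluorescent protein, and the 2 labelled vector (vector-labelled arrays) from stable cells transfected with the plasmid pCMV6-AC-GFP. Both lines were selected with 1 mg/mL G418, kept in 0.5 mg/mL G418 and otherwise untreated, so that G418 and a GFP construct are common to both groups. The labels do not say how many clones made up each line. Nor do they say that the 2 arrays of a line came from separate cultures, so the p-values reflect the spread between these arrays, which may be technical in origin.

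Proteins that enter the secretory pathway are folded in the ER by chaperones such as HSPA5 (BiP) and by protein disulfide isomerases. When misfolded protein builds up, the sensors IRE1 (ERN1, ERN2), ATF6 and the kinase PERK start the unfolded protein response: IRE1 splices the mRNA of XBP1, cleaved ATF6 enters the nucleus, and PERK phosphorylates eIF2 alpha, which slows translation in general and favours that of ATF4. Proteins that cannot be folded are drawn back through the HRD1 (SYVN1) and SEL1L complex, extracted by the ATPase VCP (p97) and degraded by the proteasome. In the colon the pathway is best known from mucus-secreting cells, which carry a heavy secretory load.

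Probes had a median intensity of 649 and 607 on HMGA2-labelled arrays and of 698 and 767 on vector-labelled arrays. HMGA2, the targeted gene, was called in opposite directions at its 2 probes. The brighter HMGA2 probe read 3917 and 4369 on HMGA2-labelled arrays, against 5576 and 5270 on vector-labelled arrays (log2 difference -0.39, SE 0.095, adjusted p = 0.0186), and this fall was not called after quantile normalization (-0.19, adjusted p = 0.115). The other probe read 4596 and 3466 on HMGA2-labelled arrays, against 2728 and 3493 on vector-labelled arrays, and was called higher although the groups overlapped (log2 difference 0.37, SE 0.12, adjusted p = 0.0177, in a fit of every probe). In that fit the brighter HMGA2 probe had an adjusted p of 0.00296, so p-values of the 2 fits are not comparable. The files do not place these probes relative to the plasmid's insert, so every direction below rests on the labels alone. All 11 measured colon epithelial markers lay above the level limit, with sums of 577964 to 582162 on HMGA2-labelled arrays and 490266 to 515307 on vector-labelled arrays. EPCAM, KRT19 and CDH1 make up most of these sums. Single epithelial markers moved both ways: 4 rose (VIL1 by 1.23 log2, CLDN4 by 0.58, EPCAM by 0.26 and CDH1 by 0.26), and 3 fell (KRT8 at -2.43, LGALS4 at -0.76 and CDX2 at -0.62). Of the fibroblast markers 3 of 7 lay above the limit, with sums of 4371 to 5195 on HMGA2-labelled arrays and 4991 to 6181 on vector-labelled arrays. For leukocytes it was 1 of 4, with sums of 3161 to 3540 on HMGA2-labelled arrays and 4935 to 5445 on vector-labelled arrays. For endothelium it was 3 of 4, with sums of 1863 to 1934 on HMGA2-labelled arrays and 2075 to 2223 on vector-labelled arrays. COL1A1, LUM, PDGFRB, CD14, PECAM1, VWF and CDH5 lay above the limit. COL1A2, COL3A1, DCN, THY1, PTPRC, CD3E, LYZ and KDR were below it. COL1A1 makes up most of the fibroblast sums and CD14 most of the leukocyte sums. Both fell, COL1A1 at -0.43 (adjusted p = 0.0406) and CD14 at -0.69 (adjusted p = 0.00185). After quantile normalization COL1A1 was not called (-0.21, adjusted p = 0.264). The part of these markers in the results was not tested.

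ER genes moved in both directions, with more falls than rises. Of the 54 tested, 11 were higher and 23 lower on HMGA2-labelled arrays at an adjusted p of 0.05 (limma, which gave every adjusted p-value here), and 20 did not pass. Over all 13752 tested genes 43.6% passed, 14.9% higher and 28.7% lower; among the ER genes the shares were 63.0%, 20.4% and 42.6%. Their median log2 difference was -0.14, beside -0.094 over all genes, a gap of -0.042. After quantile normalization, which moved the median of all genes by 0.18 log2 to 0.085, 15 ER genes were higher and 21 lower, beside 28% and 22.6% of all genes (50.6% in either direction). Of the 34 called as deposited, 32 kept their call and direction there. Both arrays of one group lay beyond both of the other for 44 of the 54 genes, 15 higher and 29 lower. Over all genes 71.3% did so, 27.7% higher and 43.6% lower. Differences of at least 1 log2 past the threshold numbered 9, with 1 rise and 8 falls, beside 9.48% of all genes, 1.31% rises and 8.17% falls.

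**Figure D1:**
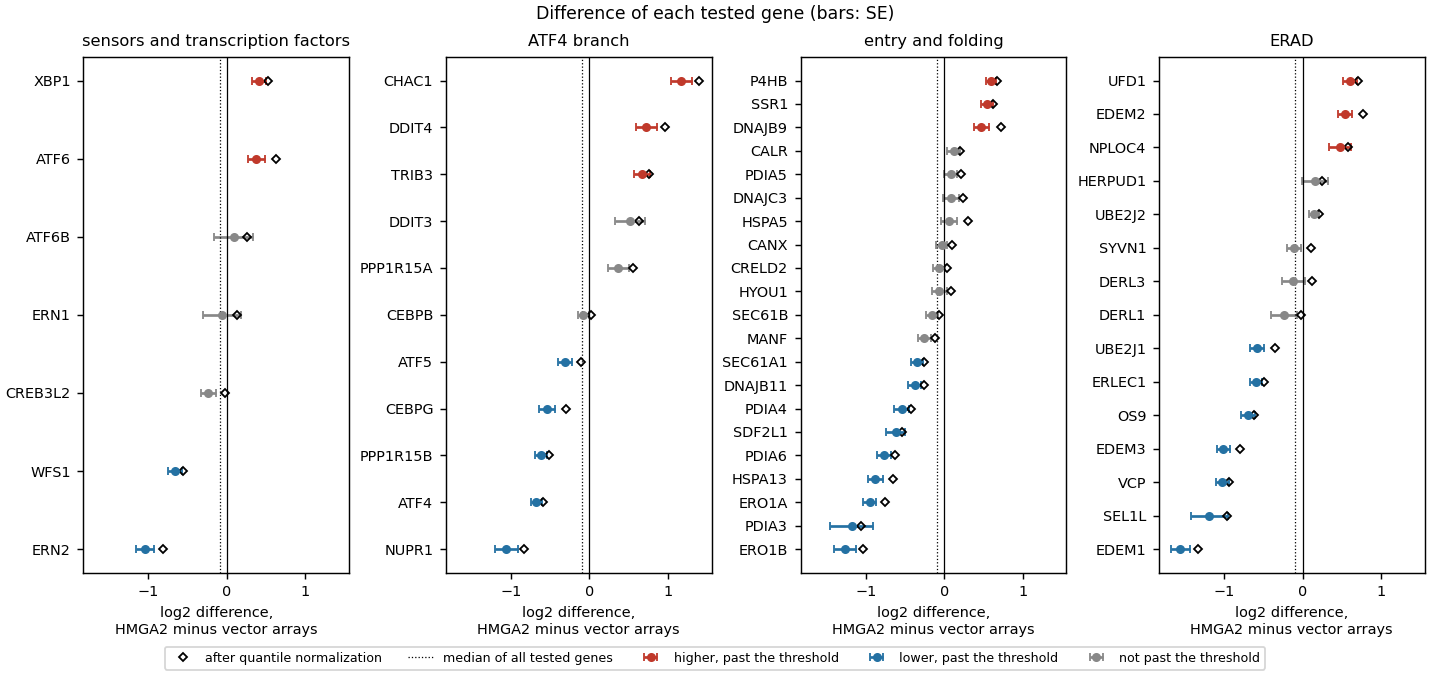
Log2 difference (arrays labelled HMGA2 minus arrays labelled vector) of each of the 54 tested ER genes, by role, with SE bars; open diamonds give the difference after quantile normalization and the dotted line the median of all 13752 tested genes (-0.094). CHAC1 stands at 1.17, the highest of the 54, and EDEM1 at -1.56, the lowest.

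Among sensors and transcription factors, XBP1 and the brighter ATF6 probe were higher and WFS1 and ERN2 lower on HMGA2-labelled arrays. The other 3 of the 7 tested did not pass. The shares over all genes were 14.9% higher and 28.7% lower. XBP1, the transcription factor whose mRNA IRE1 splices, read 17249 and 16395 on HMGA2-labelled arrays, against 13347 and 12026 on vector-labelled arrays (log2 difference 0.41, SE 0.087, adjusted p = 0.0115). Both arrays labelled HMGA2 lay above both labelled vector. The files do not place the probe relative to the segment that IRE1 removes, so spliced and unspliced forms were not told apart. ERN2, the IRE1 isoform of mucosal epithelium, read 1681 and 1443 on HMGA2-labelled arrays, against 3123 and 3312 on vector-labelled arrays (log2 difference -1.05, SE 0.11, adjusted p = 0.00091), roughly level within each group and without overlap. WFS1, an ER membrane protein that restrains ATF6 signalling, read 10456 and 11897 on HMGA2-labelled arrays, against 17995 and 17238 on vector-labelled arrays (log2 difference -0.66, SE 0.092, adjusted p = 0.0024). Its groups were again apart.

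ATF6, a sensor that is itself released as a transcription factor, gave opposite results from its 2 probes. The brighter read 2123 and 2159 on HMGA2-labelled arrays, against 1764 and 1542 on vector-labelled arrays (log2 difference 0.38, SE 0.11, adjusted p = 0.0325 among genes). The other read 679 and 598 on HMGA2-labelled arrays, against 1222 and 1255 on vector-labelled arrays, a larger difference in the other direction (log2 difference -0.96, SE 0.17, adjusted p = 9.53e-06, in a fit of every probe). In that fit the brighter ATF6 probe had an adjusted p of 0.0214. The gene therefore has no single direction in these data, and its mean over probes was -0.29, adjusted p = 0.0585. Even the brighter probe lost its call without vector replicate 2 (0.28, adjusted p = 0.161), without HMGA2 replicate 1 (0.39, adjusted p = 0.0792) and without HMGA2 replicate 2 (0.36, adjusted p = 0.101), and XBP1 lost its call without vector replicate 2 (0.33, adjusted p = 0.0756).

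The remaining sensors did not pass. ERN1, the widely expressed IRE1, read 492 and 782 on HMGA2-labelled arrays, against 631 and 667 on vector-labelled arrays (log2 difference -0.065, SE 0.24, adjusted p = 0.851), and its groups overlapped. ATF6B, a relative of ATF6, read 462 and 320 on HMGA2-labelled arrays, against 355 and 370 on vector-labelled arrays (log2 difference 0.085, SE 0.24, adjusted p = 0.807), also with overlap. CREB3L2, another transcription factor held in the ER membrane, had a difference of -0.24 (SE 0.096, adjusted p = 0.0957) at its brightest probe. A dimmer CREB3L2 probe read 4160 and 4111 on HMGA2-labelled arrays, against 2651 and 2755 on vector-labelled arrays and rose (log2 difference 0.61, SE 0.11, adjusted p = 1.59e-05, in the fit of every probe), while the remaining one did not pass at 0.16.

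In the ATF4 branch, CHAC1, DDIT4 and TRIB3 rose while ATF4 mRNA itself fell. Of 11 tested genes, 3 rose (CHAC1, DDIT4, TRIB3), 5 fell (ATF4, ATF5, CEBPG, PPP1R15B, NUPR1) and 3 did not pass (DDIT3, PPP1R15A, CEBPB), beside 14.9% rises and 28.7% falls over all genes. The balance turned to 5 rises and 3 falls after quantile normalization, with normexp before it, and with array medians subtracted. The balance of all genes turned likewise, to 28% higher and 22.6% lower, 28% and 22.7%, and 27% and 18%, in that order. CHAC1, an enzyme that breaks down glutathione and a known ATF4 target, read 2942 and 3706 on HMGA2-labelled arrays, against 1383 and 1553 on vector-labelled arrays (log2 difference 1.17, SE 0.14, adjusted p = 0.00133). Each array labelled HMGA2 was well above each labelled vector, and the replicates of a group lay closer together than the groups. TRIB3, a pseudokinase induced by ATF4 and DDIT3, read 33044 and 35458 on HMGA2-labelled arrays, against 19919 and 23360 on vector-labelled arrays (log2 difference 0.67, SE 0.10, adjusted p = 0.00315). Its second probe rose too, with 7385 and 8576 on HMGA2-labelled arrays, against 5737 and 5684 on vector-labelled arrays. DDIT4, an inhibitor of mTORC1 signalling that stress induces, read 2490 and 2079 on HMGA2-labelled arrays, against 1276 and 1483 on vector-labelled arrays (log2 difference 0.73, SE 0.13, adjusted p = 0.00685), again with no overlap. ATF4 targets did not move as 1 class: in a further list of 12, given below, 7 rose and 3 fell, CTH and VEGFA among the falls.

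ATF4, whose protein is made mainly through regulated translation, read 93743 and 96937 on HMGA2-labelled arrays, against 147541 and 157268 on vector-labelled arrays (log2 difference -0.68, SE 0.07, adjusted p = 0.00084). Its dimmer probe fell as well, with 1960 and 2217 on HMGA2-labelled arrays, against 2889 and 2609 on vector-labelled arrays (log2 difference -0.40, SE 0.12, adjusted p = 0.00935, in the fit of every probe), so both ATF4 probes pointed the same way. NUPR1, a small stress-induced chromatin protein, read 560 and 489 on HMGA2-labelled arrays, against 1050 and 1131 on vector-labelled arrays (log2 difference -1.06, SE 0.14, adjusted p = 0.00212). The arrays labelled HMGA2 carried about the same low value and those labelled vector a higher one. CEBPG, a partner of ATF4 on DNA, read 1528 and 1716 on HMGA2-labelled arrays, against 2380 and 2331 on vector-labelled arrays (log2 difference -0.54, SE 0.10, adjusted p = 0.00767). ATF5, a relative of ATF4, read 4398 and 4319 on HMGA2-labelled arrays, against 5183 and 5628 on vector-labelled arrays (log2 difference -0.31, SE 0.087, adjusted p = 0.0307). After quantile normalization neither CEBPG (-0.30, adjusted p = 0.0541) nor ATF5 (-0.11, adjusted p = 0.361) passed, and ATF5 lost its call when any 1 array was left out, with differences from -0.37 to -0.25.

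DDIT3 (CHOP), a transcription factor of prolonged ER stress, was higher on both arrays labelled HMGA2 but unevenly so. It read 10396 and 15025 on HMGA2-labelled arrays, against 7938 and 9653 on vector-labelled arrays and did not pass (log2 difference 0.51, SE 0.19, adjusted p = 0.0707). It did pass after quantile normalization (0.63, adjusted p = 0.0295), without vector replicate 1 (0.37, adjusted p = 0.0471), without vector replicate 2 (0.65, adjusted p = 0.000211) and without HMGA2 replicate 1 (0.78, adjusted p = 0.00232). The highest value, on HMGA2 replicate 2, is far from its replicate, and without that array the difference was 0.25 (adjusted p = 0.184). PPP1R15A (GADD34), the induced subunit that directs phosphatase to eIF2 alpha, read 5083 and 6161 on HMGA2-labelled arrays, against 3927 and 4781 on vector-labelled arrays and did not pass (log2 difference 0.37, SE 0.14, adjusted p = 0.077), but passed after quantile normalization (0.56, adjusted p = 0.0176), without vector replicate 2 (0.51, adjusted p = 0.00508) and without HMGA2 replicate 1 (0.51, adjusted p = 0.0225). The PPP1R15A difference was 0.23 without HMGA2 replicate 2 (adjusted p = 0.249) and without vector replicate 1 (adjusted p = 0.267). CEBPB, another bZIP factor, read 16462 and 15983 on HMGA2-labelled arrays, against 17154 and 17049 on vector-labelled arrays (log2 difference -0.076, SE 0.073, adjusted p = 0.443), nearly level across the 4 arrays.

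PPP1R15B (CReP), the constitutive counterpart of PPP1R15A, fell at its brighter probe, with 10975 and 10630 on HMGA2-labelled arrays, against 16961 and 16318 on vector-labelled arrays (log2 difference -0.62, SE 0.076, adjusted p = 0.00145). The second PPP1R15B probe rose, with 3098 and 2775 on HMGA2-labelled arrays, against 2091 and 2118 on vector-labelled arrays (log2 difference 0.48, SE 0.12, adjusted p = 0.00135, in the fit of every probe). In that fit the brighter PPP1R15B probe had an adjusted p of 4.89e-07. The mean of the 2 probes did not pass (-0.072, adjusted p = 0.529), so the direction of this gene depends on the probe.

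**Figure D2:**
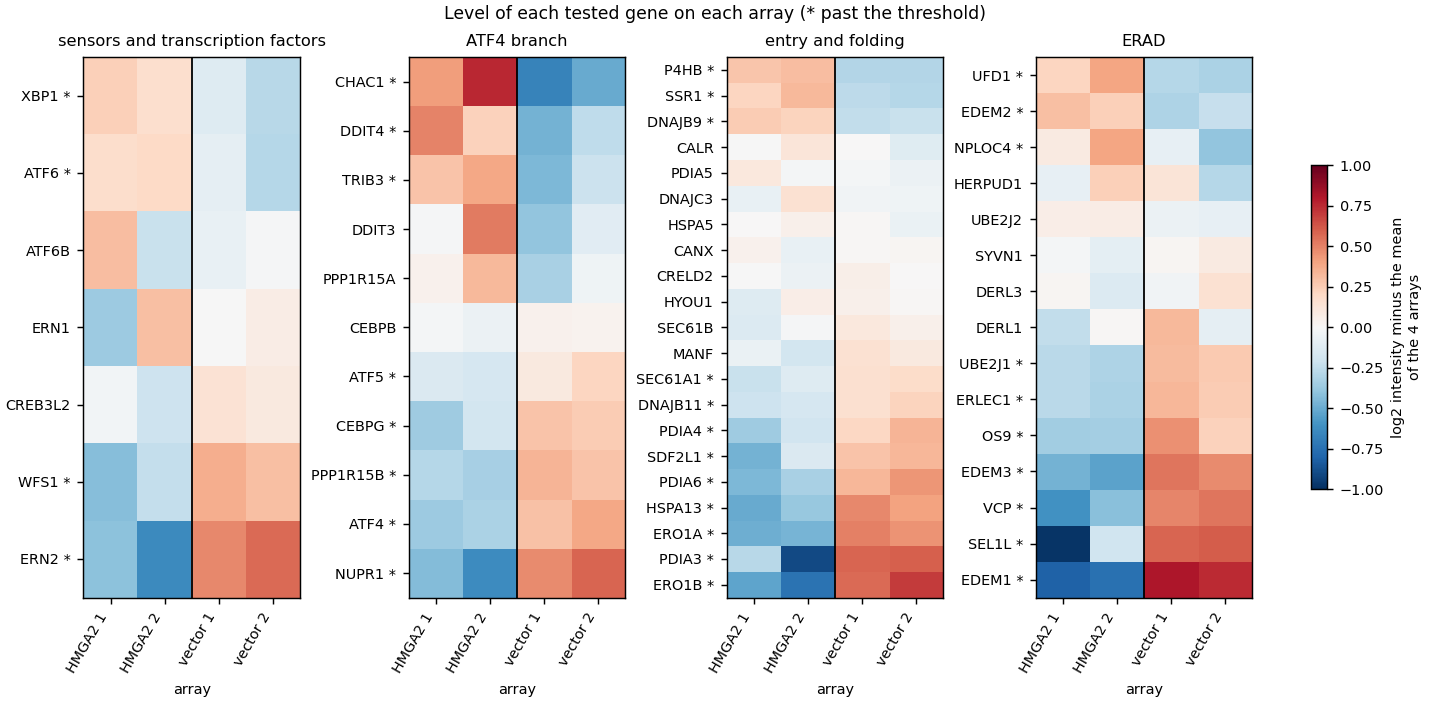
Log2 intensity of each of the 54 tested ER genes on each of the 4 arrays, shown as the difference from that gene's mean over the arrays (colour), with the arrays labelled HMGA2 left of the line and those labelled vector right of it; asterisks mark genes past the threshold. SEL1L and PDIA3, both called, and DDIT3, not called, show unequal replicates on the arrays labelled HMGA2.

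For the entry of proteins into the ER and their folding, 3 of 21 tested genes rose, 9 fell and 9 did not pass. Over all genes 14.9% rose and 28.7% fell. With array medians subtracted the falls in this group numbered 5, beside 18% falls over all genes in that setting. The 9 that fell were SEC61A1, DNAJB11, PDIA4, SDF2L1, PDIA6, HSPA13, ERO1A, PDIA3 and ERO1B, and the chaperones HSPA5, CANX and CALR did not pass. ERO1B (ERO1LB on the platform), an oxidase that recharges protein disulfide isomerases and is best known from endocrine cells, read 620 and 537 on HMGA2-labelled arrays, against 1323 and 1454 on vector-labelled arrays (log2 difference -1.27, SE 0.14, adjusted p = 0.000973). ERO1A (ERO1L on the platform), its widely expressed relative, read 3556 and 3602 on HMGA2-labelled arrays, against 7048 and 6788 on vector-labelled arrays (log2 difference -0.95, SE 0.081, adjusted p = 0.000442). Both ERO1A probes fell by almost the same amount, the other with 1081 and 1118 on HMGA2-labelled arrays, against 2035 and 2295 on vector-labelled arrays (log2 difference -0.98, SE 0.14, adjusted p = 1.49e-07, in the fit of every probe). In that fit the brighter ERO1A probe had an adjusted p of 3.08e-10. The second ERO1B probe was dim and overlapped between groups, with 119 and 58 on HMGA2-labelled arrays, against 54 and 83 on vector-labelled arrays, and the mean of the ERO1B probes did not pass (-0.48, adjusted p = 0.306).

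Protein disulfide isomerases split. PDIA6 read 5738 and 6264 on HMGA2-labelled arrays, against 9861 and 10632 on vector-labelled arrays (log2 difference -0.77, SE 0.09, adjusted p = 0.00126). PDIA4 read 8362 and 9386 on HMGA2-labelled arrays, against 12341 and 13513 on vector-labelled arrays (log2 difference -0.54, SE 0.096, adjusted p = 0.00569). Both fell without overlap, PDIA4 with a smaller difference. PDIA3 (ERp57), which works on glycoproteins with CALR and CANX, read 255 and 166 on HMGA2-labelled arrays, against 464 and 469 on vector-labelled arrays (log2 difference -1.18, SE 0.28, adjusted p = 0.0166). Its mean on HMGA2-labelled arrays was below the level limit of 7.87 log2, so the size of its fall is uncertain, and the call was lost without HMGA2 replicate 2 (-0.87, adjusted p = 0.0504); a further probe shared with a PDIA3 pseudogene is not used here. P4HB, the founding disulfide isomerase and a subunit of prolyl hydroxylase, went the other way, with 176726 and 180664 on HMGA2-labelled arrays, against 118590 and 118683 on vector-labelled arrays (log2 difference 0.59, SE 0.064, adjusted p = 0.000942). The P4HB replicates differed little and the groups were far apart. PDIA5 read 10415 and 9563 on HMGA2-labelled arrays, against 9550 and 9306 on vector-labelled arrays and did not pass (log2 difference 0.082, SE 0.084, adjusted p = 0.47).

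Among chaperones of the HSP70 system, HSPA13 (STCH), an HSP70 relative in microsomes, read 1804 and 1973 on HMGA2-labelled arrays, against 3569 and 3378 on vector-labelled arrays (log2 difference -0.88, SE 0.097, adjusted p = 0.001). SDF2L1, which works with DNAJB11 and HSPA5, read 21926 and 27447 on HMGA2-labelled arrays, against 37015 and 38367 on vector-labelled arrays (log2 difference -0.62, SE 0.12, adjusted p = 0.00723). DNAJB11 (ERdj3), a co-chaperone of HSPA5, read 10079 and 10336 on HMGA2-labelled arrays, against 12984 and 13568 on vector-labelled arrays (log2 difference -0.38, SE 0.077, adjusted p = 0.00952). These 3 fell without overlap. DNAJB9 (ERdj4), a co-chaperone that restrains IRE1 and a known XBP1 target, rose instead, with 2154 and 2110 on HMGA2-labelled arrays, against 1526 and 1551 on vector-labelled arrays (log2 difference 0.47, SE 0.094, adjusted p = 0.00884). HSPA5 (BiP), the central chaperone and the usual marker of the response, read 1496 and 1548 on HMGA2-labelled arrays, against 1501 and 1426 on vector-labelled arrays and overlapped between groups (log2 difference 0.057, SE 0.10, adjusted p = 0.687), though it passed after quantile normalization (0.31, adjusted p = 0.0484). HYOU1, which exchanges nucleotide on HSPA5, read 6866 and 7843 on HMGA2-labelled arrays, against 7766 and 7573 on vector-labelled arrays (log2 difference -0.064, SE 0.095, adjusted p = 0.627), and DNAJC3 (p58IPK) gave 0.082 (SE 0.10, adjusted p = 0.554); both overlapped between groups. DNAJB11 lost its call without vector replicate 2 (-0.35, adjusted p = 0.0683).

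The lectin chaperones were nearly level. CANX read 207472 and 191459 on HMGA2-labelled arrays, against 202462 and 204343 on vector-labelled arrays (log2 difference -0.029, SE 0.071, adjusted p = 0.768), and CALR read 26302 and 28605 on HMGA2-labelled arrays, against 26369 and 24147 on vector-labelled arrays (log2 difference 0.12, SE 0.086, adjusted p = 0.306), both with overlap. CRELD2, a secreted stress-induced factor, gave -0.062 (SE 0.076, adjusted p = 0.555). MANF, another such factor, read 8350 and 7686 on HMGA2-labelled arrays, against 9715 and 9374 on vector-labelled arrays. It narrowly missed the threshold (log2 difference -0.25, SE 0.084, adjusted p = 0.054), and its difference was -0.31 without HMGA2 replicate 1. The MANF difference was smaller after quantile normalization (-0.12, adjusted p = 0.32) and with array medians subtracted (-0.031, adjusted p = 0.885).

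Among genes of the translocation channel, SEC61A1, its pore subunit, read 25416 and 27087 on HMGA2-labelled arrays, against 33153 and 33679 on vector-labelled arrays (log2 difference -0.35, SE 0.074, adjusted p = 0.0114), and lost the call without vector replicate 2 (-0.34, adjusted p = 0.0555). SEC61B, a small subunit of the same channel, gave -0.15 (SE 0.076, adjusted p = 0.156) at its brighter probe and did not pass, while its second probe fell, with 32628 and 37472 on HMGA2-labelled arrays, against 54369 and 48973 on vector-labelled arrays (log2 difference -0.56, SE 0.097, adjusted p = 6.94e-06, in the fit of every probe). SSR1, the translocon-associated protein alpha, rose at its brightest probe, with 53790 and 57841 on HMGA2-labelled arrays, against 38667 and 37993 on vector-labelled arrays (log2 difference 0.54, SE 0.074, adjusted p = 0.00219). Another SSR1 probe fell, with 14407 and 15432 on HMGA2-labelled arrays, against 21202 and 20892 on vector-labelled arrays (log2 difference -0.50, SE 0.093, adjusted p = 2.54e-05, in the fit of every probe), and the 3 SSR1 probes averaged -0.087, adjusted p = 0.479, so SSR1 has no single direction. In the fit of every probe the brightest SSR1 probe had an adjusted p of 7.87e-06.

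Promoter letters were read for 51 of the 57 genes, in windows of 250 bases before to 50 after each annotated start (RefSeq, GRCh38.p14), because many folding genes are known to share the ER stress response element, which ATF6 and XBP1 bind. The element ERSE was searched as CCAAT, then 9 bases of any kind, then CCACG, and ERSE-II as ATTGG, 1 base of any kind, then CCACG, both on either strand. ERSE lay in windows of 8 of the 51 genes and in 0.077% of all 35116 windows; ERSE-II lay in windows of 3 of the 51 and in 0.054% of all windows. The 11 genes were CALR, CANX, CRELD2, ERO1B, HSP90B1, HSPA5, PDIA6 and XBP1 for ERSE, and HERPUD1, HYOU1 and SDF2L1 for ERSE-II. Per gene, 21.6% of the 51 and 0.161% of the 27305 genes with a window held either. The element was searched because folding genes are known to share it, so the higher share among the 51 is no finding of these data. The CANX match is 1 stretch seen from 3 annotated starts. The following stretches, each read along the gene's own strand with the match in capitals (CGTGG to ATTGG or CGTGG to CCAAT where it lies on the other strand), belong to genes that rose (XBP1), fell (PDIA6, ERO1B, SDF2L1) and did not pass (HSPA5, HERPUD1), and show ERSE at genes of all 3 outcomes; ERSE-II was found at no gene that rose.
XBP1 chr22:28800578-28800646 (- strand): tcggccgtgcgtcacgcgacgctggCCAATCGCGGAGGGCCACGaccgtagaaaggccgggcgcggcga
PDIA6 chr2:10812828-10812896 (- strand): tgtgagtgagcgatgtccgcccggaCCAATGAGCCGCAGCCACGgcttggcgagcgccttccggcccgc
ERO1B chr1:236282158-236282208 (- strand): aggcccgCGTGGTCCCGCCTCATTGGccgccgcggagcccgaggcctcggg
SDF2L1 chr22:21642089-21642149 (+ strand): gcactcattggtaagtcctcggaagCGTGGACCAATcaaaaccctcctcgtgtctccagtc
HSPA5 chr9:125241366-125241434 (- strand): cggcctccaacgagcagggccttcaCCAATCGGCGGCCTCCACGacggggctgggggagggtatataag
HERPUD1 chr16:56932000-56932060 (+ strand): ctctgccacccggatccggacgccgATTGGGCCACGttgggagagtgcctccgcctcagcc

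Of the 10 tested genes with ERSE or ERSE-II, 1 rose, 3 fell and 6 did not pass, with a median log2 difference of -0.046. Of the 38 tested genes whose windows held neither, 9 rose, 17 fell and 12 did not pass, with a median of -0.19. Beside these, 14.9% of all genes rose and 28.7% fell, with a median of -0.094. After quantile normalization the medians were 0.091 and -0.049, beside 0.085 over all genes. Genes with and without the element included both directions, as did all genes, and the comparison is a description of these letters and values. A match is no evidence that a factor binds, and no match says only that the letters are missing from the window.

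The other elements searched were shorter. The core of the unfolded protein response element, TGACGTGG on either strand, lay in windows of HYOU1, UBE2J1 and VCP and in 0.729% of all windows. Per gene, it lay in 3 of the 51 and in 0.927% of all genes with a window. In HYOU1 it overlaps an ERSE-II match. A form of the C/EBP-ATF response element known as CARE, searched as TGATG, 1 base of any kind, then AA on either strand, lay in windows of CEBPG, CHAC1, CREB3L2, HERPUD1 and PPP1R15B and in 3.62% of all windows. Per gene, CARE lay in 5 of the 51 and in 4.46% of all genes with a window. Of these 5 genes 1 rose, 2 fell and 2 did not pass, beside 14.9% rises and 28.7% falls over all genes. The CHAC1 and VCP stretches are shown as those of the gene with the largest rise and of a gene that fell by over 1 log2, with the match in capitals (TTGCATCA is CARE on the other strand).
CHAC1 chr15:40953237-40953294 (+ strand): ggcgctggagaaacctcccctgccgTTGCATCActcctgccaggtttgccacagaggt
VCP chr9:35072782-35072839 (- strand): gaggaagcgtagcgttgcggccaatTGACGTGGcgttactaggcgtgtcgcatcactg

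**Figure D3:**
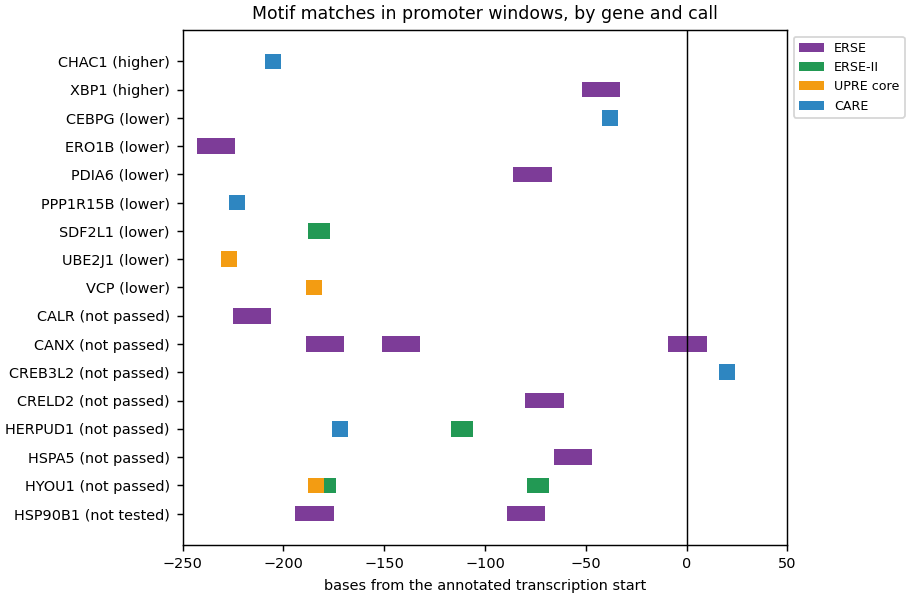
Position of each motif match in the promoter windows of the ER genes, in bases from the annotated transcription start (x axis, 250 before to 50 after), with the call of each gene in brackets. ERSE and ERSE-II matches lie upstream of genes that were higher (XBP1), lower (ERO1B, PDIA6, SDF2L1) and not past the threshold.

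In ERAD 3 of 15 tested genes rose, 7 fell and 5 did not pass, beside 14.9% rises and 28.7% falls over all genes. After quantile normalization 4 rose and 7 fell, beside 28% and 22.6%. EDEM1, a mannosidase-like protein that marks misfolded glycoproteins for removal, had the lowest difference of all 54 ER genes, with 523 and 548 on HMGA2-labelled arrays, against 1604 and 1543 on vector-labelled arrays (log2 difference -1.56, SE 0.12, adjusted p = 0.000329). EDEM3 read 2972 and 2836 on HMGA2-labelled arrays, against 5962 and 5720 on vector-labelled arrays (log2 difference -1.01, SE 0.085, adjusted p = 0.00043). EDEM2, which starts the mannose trimming, rose, with 3385 and 3249 on HMGA2-labelled arrays, against 2220 and 2342 on vector-labelled arrays (log2 difference 0.54, SE 0.09, adjusted p = 0.00458). The 3 EDEM genes were thus split, each with groups that did not overlap. Lectins that hand trimmed glycoproteins to the ubiquitin ligase fell: OS9 read 24493 and 24622 on HMGA2-labelled arrays, against 42973 and 36736 on vector-labelled arrays (log2 difference -0.69, SE 0.095, adjusted p = 0.00218), and ERLEC1 (XTP3-B) read 12495 and 12082 on HMGA2-labelled arrays, against 19012 and 17979 on vector-labelled arrays (log2 difference -0.59, SE 0.077, adjusted p = 0.00188). ERLEC1 and OS9 were each lower on both arrays labelled HMGA2.

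SEL1L, the scaffold of the HRD1 ligase complex, had 3 probes. Its brightest read 1300 and 2234 on HMGA2-labelled arrays, against 3848 and 3913 on vector-labelled arrays (log2 difference -1.19, SE 0.24, adjusted p = 0.00939), and the 2 arrays labelled HMGA2 differed from each other more than usual. Another fell as well, with 956 and 860 on HMGA2-labelled arrays, against 1275 and 1743 on vector-labelled arrays (log2 difference -0.72, SE 0.16, adjusted p = 0.00031, in the fit of every probe), and the third read 601 and 430 on HMGA2-labelled arrays, against 447 and 564 on vector-labelled arrays, with overlap. SYVN1 (HRD1), the ligase itself, did not pass at its brighter probe, which read 3397 and 3209 on HMGA2-labelled arrays, against 3490 and 3658 on vector-labelled arrays (log2 difference -0.11, SE 0.088, adjusted p = 0.344), whereas its second probe rose, with 2419 and 2226 on HMGA2-labelled arrays, against 1625 and 1744 on vector-labelled arrays (log2 difference 0.46, SE 0.13, adjusted p = 0.00349, in the fit of every probe). HERPUD1, a stress-induced partner of HRD1, read 25252 and 31533 on HMGA2-labelled arrays, against 29172 and 21997 on vector-labelled arrays (log2 difference 0.16, SE 0.16, adjusted p = 0.485). Its groups overlapped, each pair of replicates being uneven. The HERPUD1 difference was 0.36 without vector replicate 1 and -0.048 without vector replicate 2. The E2 enzyme UBE2J1 fell, with 2151 and 2089 on HMGA2-labelled arrays, against 3227 and 3101 on vector-labelled arrays (log2 difference -0.58, SE 0.089, adjusted p = 0.00342), and at its second probe too. UBE2J2, a relative of UBE2J1, gave 0.15 (SE 0.068, adjusted p = 0.134) at its brighter probe, which passed after quantile normalization (0.22, adjusted p = 0.0406). The second UBE2J2 probe read 8448 and 9373 on HMGA2-labelled arrays, against 6570 and 6270 on vector-labelled arrays. That probe rose (log2 difference 0.47, SE 0.099, adjusted p = 0.000149, in the fit of every probe). The mean of the 2 UBE2J2 probes passed as well (0.31, adjusted p = 0.0149).

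VCP, the ATPase that pulls proteins out of the ER membrane, read 40583 and 46210 on HMGA2-labelled arrays, against 86439 and 89355 on vector-labelled arrays (log2 difference -1.02, SE 0.086, adjusted p = 0.00043). Its cofactors were higher: UFD1 (UFD1L on the platform) read 50994 and 57783 on HMGA2-labelled arrays, against 36064 and 35302 on vector-labelled arrays (log2 difference 0.61, SE 0.085, adjusted p = 0.00248), and NPLOC4, which pairs with UFD1, read 14348 and 17698 on HMGA2-labelled arrays, against 12722 and 10266 on vector-labelled arrays (log2 difference 0.48, SE 0.14, adjusted p = 0.0381). The dimmer UFD1 probe fell, however, with 887 and 715 on HMGA2-labelled arrays, against 1115 and 1181 on vector-labelled arrays (log2 difference -0.53, SE 0.17, adjusted p = 0.0109, in the fit of every probe), and the mean of the 2 probes did not pass (0.039, adjusted p = 0.731). NPLOC4 lost its call without vector replicate 2 (0.32, adjusted p = 0.0856) and without HMGA2 replicate 2 (0.33, adjusted p = 0.0936). VCP rests on 1 probe.

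Derlins, which form the channel for retrotranslocation, did not pass at their brighter probes. DERL1 read 3065 and 3679 on HMGA2-labelled arrays, against 4566 and 3424 on vector-labelled arrays, with overlap. Its log2 difference was -0.24 (SE 0.16, adjusted p = 0.293), and -0.44 without vector replicate 2. It was near 0 without vector replicate 1 (-0.028) and after quantile normalization (-0.017, adjusted p = 0.94). Its other probe fell, with 1766 and 2071 on HMGA2-labelled arrays, against 3839 and 4185 on vector-labelled arrays (log2 difference -1.07, SE 0.12, adjusted p = 6.15e-10, in the fit of every probe). DERL3 read 800 and 716 on HMGA2-labelled arrays, against 768 and 878 on vector-labelled arrays (log2 difference -0.12, SE 0.14, adjusted p = 0.553), also with overlap.

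Of the 18 tested ER genes with more than 1 probe, 4 had every probe called in 1 direction in the fit of every probe (ATF4, ERO1A, TRIB3, UBE2J1). In that fit 32.4% of all 31741 probes passed. In 4 the probes were called in opposite directions (ATF6, PPP1R15B, SSR1, UFD1), in 7 only some probes passed, and in 3 none did. The files do not say which transcript forms each probe detects. The 36 other tested genes, 24 of them called, rest on a single probe, where no such check exists.

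**Figure D4:**
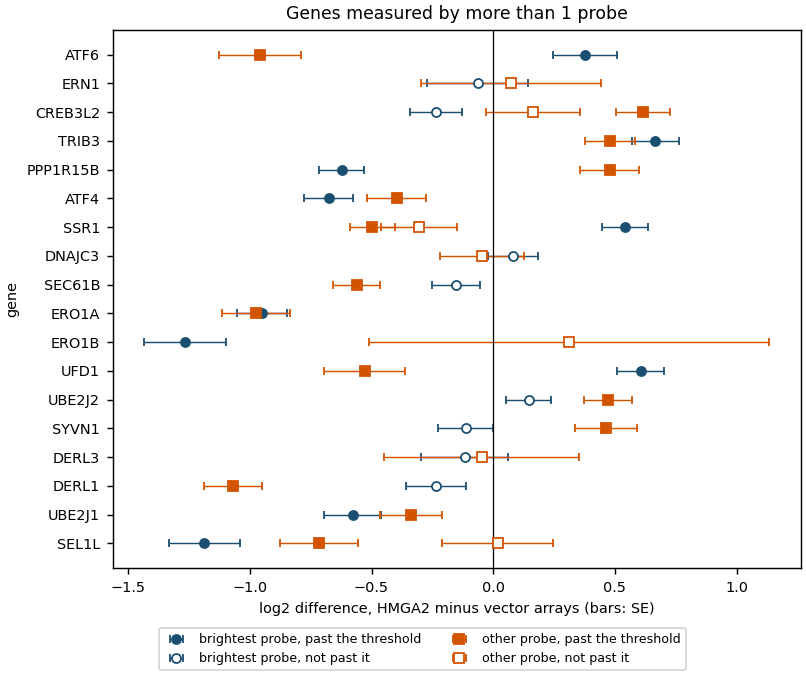
Log2 difference (arrays labelled HMGA2 minus arrays labelled vector) with SE bars for every probe of the 18 tested ER genes that have more than 1; circles are the brightest probe, squares the others, and filled symbols passed the threshold in the fit of every probe. ATF6, PPP1R15B, SSR1 and UFD1 have filled symbols on both sides of 0.

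Other genes of the pathway were followed in 8 lists of 116 genes, which were chosen with earlier results of these data known. Of these, 111 were tested, of which 31 rose and 38 fell, beside 14.9% and 28.7% of all genes. After quantile normalization 40 rose and 31 fell, beside 28% and 22.6% of all genes. In the list of further ATF4 target genes 7 of 12 rose and 3 fell, with ASNS, the asparagine synthetase, at 0.82 and CTH and VEGFA at -0.95 and -0.76. In a list of eIF2 kinases, the proteases that cleave ATF6 and further signalling genes of the response (eIF2 alpha itself, ATF3, TRAF2 and RTCB), 4 of 10 rose and 1 fell: ATF3, a stress-induced transcription factor, at 1.06, the ATF6 protease MBTPS1 at 0.63, and EIF2S1, which encodes eIF2 alpha, at -0.48. EIF2S1 lost its call after quantile normalization. For N-glycan transfer and trimming 5 of 15 rose and 2 fell, the falls being GANAB (-1.12) and PRKCSH (-0.98), the 2 subunits of glucosidase II, and DAD1 rose (0.55). Translocation and signal peptidase genes gave 4 rises and 7 falls of 14, with the signal peptidase subunits SPCS3 at -1.74 and SEC11C at 0.85 and TRAM1 at -0.78. Of 19 further disulfide and prolyl folding enzymes 3 rose and 9 fell, with AGR2 at -3.20, TMX4 at -1.98 and FKBP7 at -1.44. Among 19 other ERAD genes 4 rose and 7 fell, with ERLIN2 at -0.96, RNF139 at -0.81 and RNF5 at -0.76. Of 15 genes of ER export and KDEL retrieval 3 rose and 9 fell, with the cargo receptor LMAN1 at -1.13, BET1 at -0.97 and SAR1B at -0.93. Of 7 ER-phagy receptors 1 rose, TEX264 (0.34), and the other 6 did not pass.

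**Figure D5:**
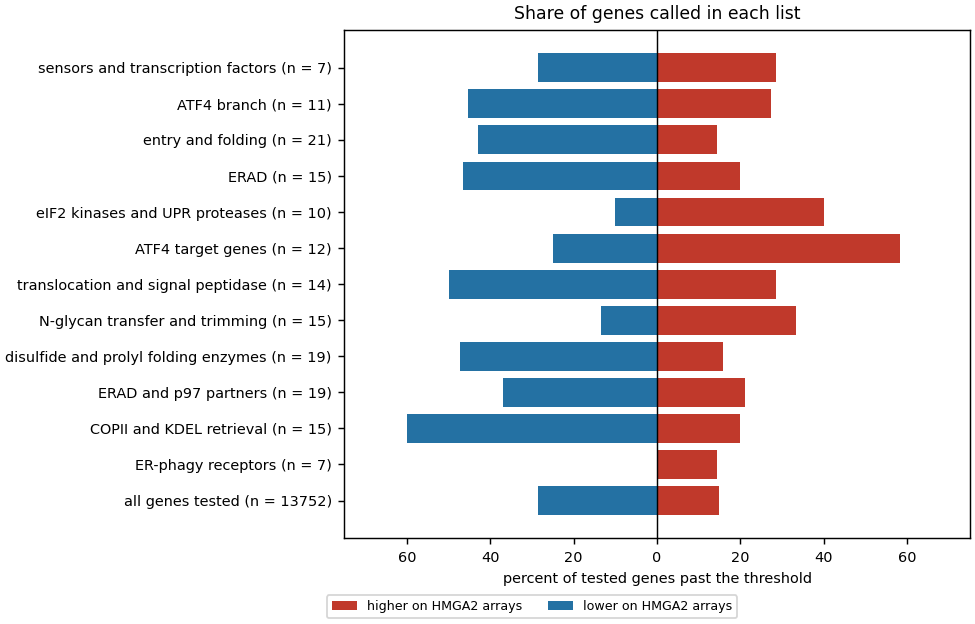
Percent of tested genes past the threshold in each list, higher on the arrays labelled HMGA2 to the right of 0 and lower to the left, with the number tested in brackets; the bottom bar gives all 13752 tested genes (14.9% higher, 28.7% lower). The list of further ATF4 target genes has 7 of 12 higher, and that of ER export and KDEL retrieval 9 of 15 lower. These 2 were picked from 8 further lists, which were chosen with earlier results of these data known. After quantile normalization they had 9 higher and 7 lower, beside 28% and 22.6% of all genes.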

How the data were processed

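RNA of the cells was amplified as aminoallyl antisense RNA and labelled with Cy5 for single-colour arrays, per the labels' protocols. The authors' deposited values are linear intensities of 31741 probes, 1 value an array; scanner, background correction and normalization are not given in the sources used here, and the array medians differ. Members and lists were chosen with earlier results of these data known. Groups and replicate numbers came from the titles. The platform annotation gives 1 gene for 24740 probes; probes with several genes were not used. Older symbols of 1948 probes were updated through RefSeq genes of GRCh38.p14. Values were floored at 1 and turned to log2 without normalizing further. The brightest probe stood for each of 18336 genes, and genes under the 25th percentile of mean level (7.87 log2) were left out, a filter that a gene can pass through 1 group alone.

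All 13752 genes were fitted together (limma 3.58.1 under R 4.3.3, eBayes following a trend on intensity), with Benjamini-Hochberg adjustment over all genes. Probe differences come from the same model over all probes. P-values of the 2 fits are not comparable: the same ERN2 values gave adjusted p = 0.00091 among genes and 3.18e-09 among probes. Calls and p-values of a fit without 1 array are not comparable with either, as 1 group then holds a single array. With 2 arrays a group the smallest exact two-sided permutation p is 0.333, so error is borrowed from all genes. The fit was tested on simulated data. All members were named, and from each other list at most 3 called genes, those that differed most. The alternatives were quantile normalization, centring on medians, normexp with an offset of 50, adding 100 before log2, other filters, probe rules and variance models, an adjusted p of 0.01, the replicate block, and each array left out. Promoter letters come from RefSeq windows on GRCh38.p14, with coordinates counted from 1. Arrays give no depth; their number limits the precision.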

Additional observations from a re-analysis of the deposited data

How the results depend on the processing

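The counts of ER genes kept within 1.5 times under every alternative run: 8 to 15 were higher and 16 to 24 lower, against 11 and 23. Leaving out 1 array gave 9 to 13 higher and 21 to 23 lower. Over all genes 2051 were higher and 3943 lower, and the number higher was 3844 after quantile normalization, 3715 with array medians subtracted, 3853 with normexp and quantile normalization, and 1037 at an adjusted p of 0.01, while 2479 were lower with medians subtracted. Leaving out 1 array gave 1650 to 1969 higher and 3542 to 3673 lower. Of the 34 called ER genes, 19 kept call and direction under every alternative that measured them. With medians subtracted 7 of the 34 calls were lost (ATF5, CEBPG, SEC61A1, DNAJB11, PDIA4, SDF2L1, ERLEC1), and 0 changed sign. The sign changed as follows in log2 differences. Under quantile normalization the values were ERN1 0.13, CEBPB 0.014, HYOU1 0.087, CANX 0.096, CRELD2 0.037, SYVN1 0.11 and DERL3 0.12. With normexp first they were ERN1 0.12, CEBPB 0.014, HYOU1 0.086, CANX 0.096, CRELD2 0.037, SYVN1 0.11 and DERL3 0.11. With medians subtracted they were ERN1 0.16, CEBPB 0.14, SEC61B 0.068, HYOU1 0.16, CANX 0.19, CRELD2 0.16, SYVN1 0.11 and DERL3 0.10. With the mean of a gene's probes they were ERN1 0.0047, ATF6 -0.29, CREB3L2 0.18, SSR1 -0.087 and SYVN1 0.17. Of these, ATF6 and SSR1 were called as deposited. When 1 array was left out the ranges that crossed 0 were HERPUD1 (-0.048 to 0.36), ERN1 (-0.40 to 0.27), ATF6B (-0.18 to 0.35), HYOU1 (-0.16 to 0.032), DNAJC3 (-0.031 to 0.19), CANX (-0.087 to 0.029), all of them not called as deposited. The cause of these changes was not tested. The titles give replicate numbers without saying whether these pair arrays of the 2 groups. Differences between replicates 1 and 2 correlated at -0.20 between the groups across 13752 genes, which cannot settle whether arrays were paired. With the replicate number as a block 12 ER genes were higher and 21 lower, beside 13.2% and 25.5% of all genes. ATF6, ATF5 and PDIA3 lost their calls there, and DDIT3 and PPP1R15A gained one. With the pairing crossed, chosen after seeing the data, 11 were higher and 23 lower, beside 18.8% and 33.6% of all genes. No array gives a signal over background, so what is detected at low levels is unknown.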
